A study of Mus musculus with 6 samples.

Results

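Interferon-stimulated effector genes are the end products of the interferon response: proteins that block viral entry, bind or cut foreign RNA, tag other proteins, sense DNA or restrict virus release. The group described here holds 33 genes, chosen by name from the count table as antiviral and other interferon-induced effectors. All 33 were found among 55493 genes, with 1 row each, and all 33 passed the filter on low counts that left 18210 genes to test. The 33 genes fall into the Ifit (4 genes), Ifitm (2), Oas (5), Mx (2), Ifi200 (4) and Slfn (2) families and 14 other genes.

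The libraries were made from microglia, brain-resident macrophages that were gated as CD11b-positive with low CD45. All mice were male, carried the ILT Telo Tg transgene together with the 5XFAD amyloid transgenes (ILT Telo Tg x 5XFAD), and were 4 months old at the start of treatment. The anti-LILRB4 group (3 libraries) received the Fc-mutant antibody ZM3.1 against ILT3, another name for the inhibitory myeloid receptor LILRB4, and the control group (3 libraries) received the Fc-mutant antibody 27D6, labelled Ctrl IgG2a. Each antibody was given intraperitoneally at 60 mg/kg in 8 weekly injections. There was no group without the transgenes and no group without antibody, and the labels give neither the promoter of the LILR transgene nor whether libraries came from separate animals, so errors and p-values cover only the spread among the 6 libraries, which may be technical.

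Total counts were between 41948140 and 56345514 in anti-LILRB4 libraries and between 39805118 and 44987032 in control libraries. Levels are given as CPM, the reads of a gene scaled to a common library size. The 10 microglia markers checked, among them P2ry12 and Tmem119, were all detected and summed to between 49451 and 49906 CPM in anti-LILRB4 libraries and between 47348 and 49357 CPM in control libraries. The human LILRB4 transgene was at 850.4, 1304 and 3297 CPM in anti-LILRB4 libraries 1, 2 and 3. It was at 1029, 1031 and 1078 CPM in control libraries 1, 2 and 3. Anti-LILRB4 library 3 stood apart in this gene, which the antibody binds. That library was also the highest for human LILRA1 (546 CPM), LILRA2 (2261 CPM) and LILRB1 (425 CPM). It was not the highest for LILRP1 and LILRP2, at 1.48 and 0.971 CPM there. Mitochondrial genes took between 2.80% and 3.29% of counts in anti-LILRB4 libraries and between 3.73% and 4.69% in control libraries, highest in control library 1. Between 25737 and 26582 genes were detected in anti-LILRB4 libraries and between 25288 and 25695 in control libraries. The 5 oligodendrocyte markers, mostly Cnp, summed to between 131.7 and 131.9 CPM in anti-LILRB4 libraries and between 97.9 and 109 CPM in control libraries. These 3 measures and the sum of the microglia markers separate the groups, as 10 of the 33 effectors do. The 5 neuron markers also separate them. They summed to between 0.997 and 1.26 CPM in anti-LILRB4 libraries and between 1.96 and 2.48 CPM in control libraries. The part of all these measures in the results was not tested.

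Type I interferons signal through the receptor IFNAR to the kinases JAK1 and TYK2, which activate STAT transcription factors. Together with IRF9 these form a complex that binds the interferon-stimulated response element (ISRE) in the promoters of effector genes. Microglia respond to interferon in this way, and interferon-responsive microglia have been described around amyloid deposits and in the ageing brain.

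As a group, the effectors were measured at lower levels in microglia of anti-LILRB4-treated mice, but no single gene passed the test across all genes. Of the 33 genes, 25 had a negative log2 fold change (anti-LILRB4 over control), 75.8% of them, against 50.9% of all genes tested. The median log2 fold change of the 33 was -0.45, against -0.01 for all genes tested. In edgeR's quasi-likelihood test 0 members were called lower at a Benjamini-Hochberg adjusted p under 0.05 (0% of all genes tested) and 0 higher (0% of all genes). At an unadjusted p under 0.05 there were 12 members lower, 36.4% of the 33, against 3.91% of all genes tested, and 0 higher, against 4.12% of all genes tested. In 10 members every anti-LILRB4 library lay below every control library, 30.3% against 7.79% of all genes, and in 0 members every anti-LILRB4 library lay above, against 6.94% of all genes. With the mean level of neutrophil markers, described further on, as a covariate, 2 members instead of 12 were at an unadjusted p under 0.05. The median was -0.17 in that fit. The covariate was below every control in anti-LILRB4 libraries 1 and 3 (log2 -2.53 and -2.40 relative to the control mean). It goes partly with treatment, so the fit cannot tell marker level and treatment apart and its p-values are less sensitive. DESeq2 on the same genes called 5 members lower (0.467% of all genes tested) and 0 higher (0.461%). These were Ifitm3, Oas1a, Rtp4, Ifi27l2a and Ifit3. The authors' deposited table, whose columns are also those of DESeq2, has the same 5 members at an adjusted p under 0.05. It has 187 of 19059 genes at that threshold, 91 of them lower. limma-voom called 0 members, with 10 lower and 0 higher at an unadjusted p under 0.05. The counts depended on single libraries. Without control library 1 the median of the 33 was -0.18 and 7 members were lower at an unadjusted p under 0.05. Without anti-LILRB4 library 1, 7 members were lower and 1 member, Ifit1, was higher at that threshold, and without anti-LILRB4 library 3, 8 were lower. Shares of all genes at an unadjusted p under 0.05 are given for the main edgeR fit only. The member counts of the other fits at that threshold thus have no share of all genes beside them.

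**Figure D1:**
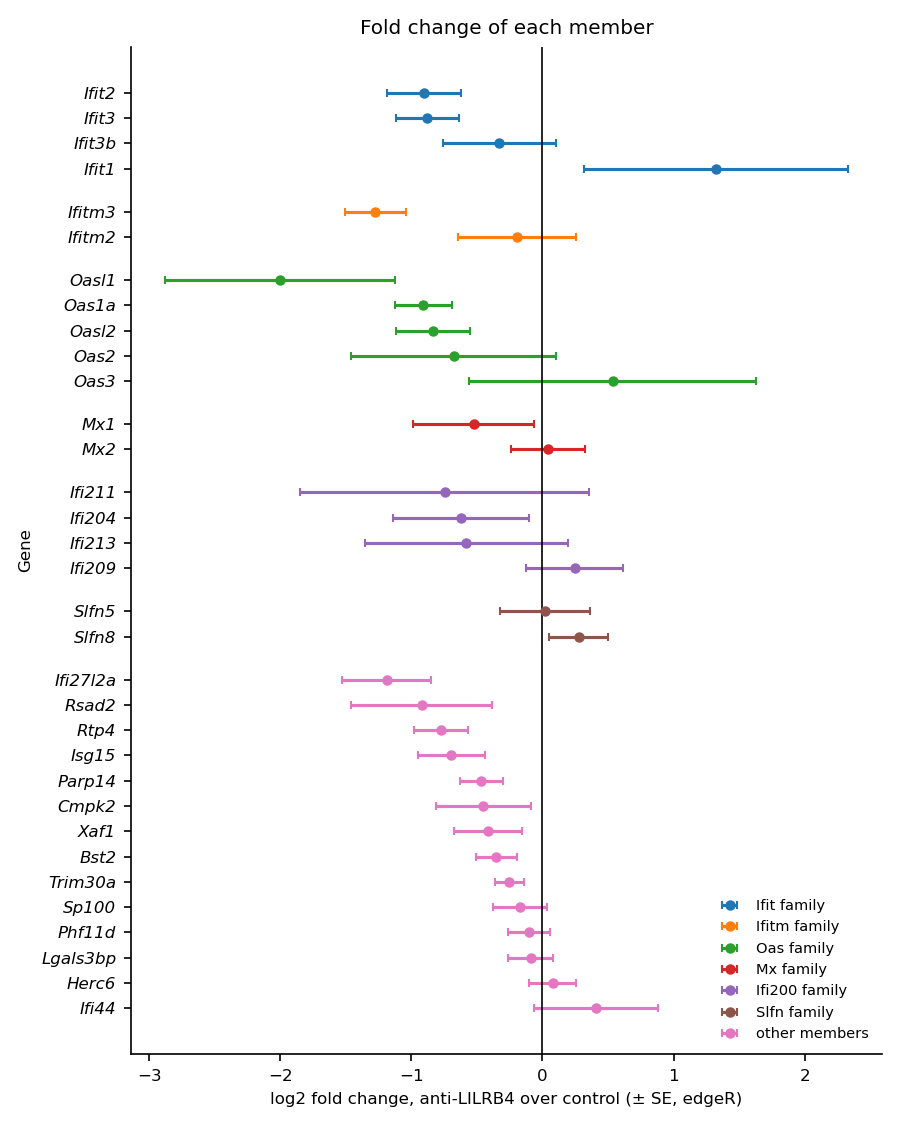
Log2 fold change of each of the 33 effector genes (x axis, anti-LILRB4 over control, bars ± SE from edgeR, 3 libraries per group), grouped and coloured by family. In all, 25 of the 33 points lie below 0, from -2.00 for Oasl1 upward, and both Slfn genes lie above 0.

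Because the ISRE is the known route from interferon to such genes, promoter stretches of 6 members are printed here to show its core in place; a match is a run of letters, not a measured binding site. RefSeq promoter windows (GRCm38.p6, 250 bases before to 50 bases after the start) were matched by symbol for 26 members. There was no entry for Rtp4, Oas2, Mx1, Mx2, Parp14, Ifi204 or Ifi27l2a. The ISRE core was searched as GAAA-NN-GAAA, N being any base, on both strands (TTTC-NN-TTTC where it lies on the other strand), and 15 of the 26 members (57.7%) held it, against 3.99% of 27025 genes with a promoter window. The members were chosen by name as interferon-induced genes, so their share of 57.7% is not a result of these libraries. The 100-base stretches below belong to the 6 members of smallest p whose core lies before the start. Each runs 5′ to 3′ on the gene's strand, and capitals mark the cores, which overlap each other where a longer run is in capitals.
Oas1a: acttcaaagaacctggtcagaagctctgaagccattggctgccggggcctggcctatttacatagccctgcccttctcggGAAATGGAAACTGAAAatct
Ifit3: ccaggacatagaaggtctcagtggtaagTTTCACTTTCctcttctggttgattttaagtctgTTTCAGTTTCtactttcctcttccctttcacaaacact
Isg15: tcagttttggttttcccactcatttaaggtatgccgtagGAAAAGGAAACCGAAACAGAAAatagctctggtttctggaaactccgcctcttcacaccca
Trim30a: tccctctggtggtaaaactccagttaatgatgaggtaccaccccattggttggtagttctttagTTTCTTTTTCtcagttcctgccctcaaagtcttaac
Bst2: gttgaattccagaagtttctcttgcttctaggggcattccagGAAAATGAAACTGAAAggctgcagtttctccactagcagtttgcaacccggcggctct
Rsad2: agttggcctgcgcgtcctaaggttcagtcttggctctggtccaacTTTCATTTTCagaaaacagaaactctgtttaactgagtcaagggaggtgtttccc

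These stretches lie at chr5:120907526-120907625 (minus strand) for Oas1a, chr19:34583345-34583444 (plus) for Ifit3, chr4:156200836-156200935 (minus) for Isg15, chr7:104465194-104465293 (minus) for Trim30a, chr8:71537545-71537644 (minus) for Bst2 and chr12:26456518-26456617 (minus) for Rsad2. Isg15 held 3 overlapping cores, the first beginning at position -78 from the start, and Oas1a and Bst2 held 2 overlapping cores each. In Ifit3 the 2 cores were separate, at positions -156 and -122. Ifitm3 held 2 cores after its RefSeq start, the first at position 3, and its stretch is not printed. The median log2 fold change was -0.35 for the 15 members with a core and -0.17 for the 11 without. The values overlap widely, from -1.27 (Ifitm3) to 1.32 (Ifit1) with a core and from -2.00 (Oasl1) to 0.41 (Ifi44) without. The difference between these medians was not tested, and members without a window, such as Rtp4, Ifi27l2a and Parp14, are in neither class. Among all tested genes with a window it was -0.005 for the 415 with a core and 0.02 for the others.

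The Ifitm proteins sit in membranes and block the fusion of viruses with the cell. Ifitm3 (chromosome 7, 141009586 to 141010770, minus strand; all gene coordinates are those of GENCODE M21 on GRCm38) was at 28.5, 46.2 and 44.5 CPM in anti-LILRB4 libraries 1, 2 and 3, against 122, 70.3 and 95.5 CPM in control libraries 1, 2 and 3. Every anti-LILRB4 library was below every control library. Its log2 fold change was -1.27 (SE 0.23, edgeR adjusted p 0.386), with an adjusted p of 0.000141 in the authors' deposited table. The fold change kept its sign in all 16 alternatives, between -1.45 and -1.06 when single libraries were left out. Ifitm2, its neighbour on the same chromosome, was at 2.95, 3.89 and 1.92 CPM in anti-LILRB4 libraries and 5.38, 1.78 and 2.87 CPM in control libraries, and these groups overlap (log2 fold change -0.19, SE 0.45). Its sign changed without control library 1. No 150-base window of the Ifitm3 transcripts occurs in the transcripts of another gene, whereas 23.5% of those of Ifitm2 occur in Gm45717, an overlapping annotated gene.

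The Ifit proteins bind viral RNA and block its translation. Ifit3 (chromosome 19, 34583531 to 34588731, plus strand), a cofactor of Ifit1 in humans, was at 9.66, 12.5 and 6.65 CPM in anti-LILRB4 libraries, against 19.0, 17.6 and 16.4 CPM in control libraries. Ifit2 (chromosome 19, 34550694 to 34576419, plus strand) was at 6.63, 8.24 and 7.92 CPM in anti-LILRB4 libraries, against 17.5, 8.48 and 16.6 CPM in control libraries. In both genes the groups did not overlap, although for Ifit2 anti-LILRB4 library 2 lay just under control library 2. Their log2 fold changes were -0.88 (SE 0.24, edgeR adjusted p 0.439) for Ifit3 and -0.90 (SE 0.28, edgeR adjusted p 0.506) for Ifit2. Ifit3b was at 1.73, 5.33 and 6.92 CPM in anti-LILRB4 libraries and 5.79, 5.21 and 6.55 CPM in control libraries, so only anti-LILRB4 library 1 was below all controls. Of the 150-base windows of Ifit3 transcripts, 18.5% also occur in Ifit3b, so the split of reads between these genes is uncertain. Ifit1 went the other way, at 0.0887, 2.84 and 1.48 CPM in anti-LILRB4 libraries and 0.701, 0.124 and 0.933 CPM in control libraries. These are 4, 162 and 61 reads in anti-LILRB4 libraries and 31, 5 and 41 reads in control libraries, and the spread within each group is wide (log2 fold change 1.32, SE 1.01). Ifit2 and Ifit3 are thus separated between the groups while Ifit1, from the same gene cluster, is not.

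The Oas enzymes make oligoadenylates when double-stranded RNA is present, and the Oas-like proteins Oasl1 and Oasl2 are related antiviral proteins. Oas1a (chromosome 5, 120896256 to 120907521, minus strand) was at 6.65, 6.92 and 9.30 CPM in anti-LILRB4 libraries, against 15.7, 13.3 and 13.9 CPM in control libraries. The groups are well apart, and the control libraries differ little among themselves. Its log2 fold change was -0.91 (SE 0.22, edgeR adjusted p 0.426) and lay between -1.08 and -0.82 when single libraries were left out. Of the 150-base windows of Oas1a, 32.4% occur also in Oas1g, which was itself at 1.40 CPM on average in anti-LILRB4 libraries and 2.05 CPM in control libraries. Oasl2 (chromosome 5, 114896936 to 114912234, plus strand) was at 7.74, 10.0 and 6.22 CPM in anti-LILRB4 libraries, against 19.6, 12.1 and 11.1 CPM in control libraries, again without overlap (log2 fold change -0.83, SE 0.28, edgeR adjusted p 0.506), and its fold change was -0.53 without control library 1. Oasl1, which in mice restrains translation of the interferon regulator Irf7, had the lowest fold change of the group (-2.00, SE 0.88, edgeR adjusted p 0.614). Its values were 0.554, 0.701 and 0.316 CPM in anti-LILRB4 libraries and 4.05, 2.13 and 0.159 CPM in control libraries, so control library 3 was the lowest of the 6 and the groups overlap. The fold change of Oasl1 was -1.12 without control library 1 and -1.09 in limma-voom, where Ifitm3 was lower. Oas2 and Oas3 were near the limit of detection, with means of 0.308 and 0.848 CPM in anti-LILRB4 libraries and 0.499 and 0.589 CPM in control libraries. Oas3 had log2 fold changes of 0.53 in edgeR and -0.013 in limma-voom, so its direction depended on the tool.

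The members from the Mx, Ifi200 and Slfn families were not separated between the groups. The Mx proteins are dynamin-like GTPases that trap viral components, and both genes are annotated in the count table as polymorphic pseudogenes, as laboratory strains often carry defective alleles. Mx1 was at 1.51, 1.49 and 3.30 CPM in anti-LILRB4 libraries and 4.30, 3.00 and 1.75 CPM in control libraries. Mx2 was at 5.74, 5.31 and 6.05 CPM in anti-LILRB4 libraries and 4.91, 7.44 and 4.28 CPM in control libraries. For Mx1 the log2 fold change was -0.53 (SE 0.46), and for Mx2 it was 0.04 (SE 0.28). Of the Ifi200 genes, nuclear proteins of which several bind DNA, Ifi204 was at 3.99, 4.66 and 4.10 CPM in anti-LILRB4 libraries and 10.4, 1.66 and 7.53 CPM in control libraries. The anti-LILRB4 libraries thus lay close together, in the gap between control library 2 and the other controls. Control library 2 also had the lowest level of the 6 libraries for Ifi213, at 0.198 CPM. Ifi209 had a log2 fold change of 0.24 (SE 0.37), and Ifi211 and Ifi213 averaged 0.357 and 0.746 CPM in anti-LILRB4 libraries and 0.598 and 1.12 CPM in control libraries. Of the 150-base windows of Ifi211, 46.4% occur in other Ifi200 genes, so its reads are the least certain of the group. The Slfn genes, linked to cell growth and tRNA control, overlapped between the groups. Slfn8 was at 14.1, 23.9 and 18.5 CPM in anti-LILRB4 libraries and 12.9, 17.7 and 16.2 CPM in control libraries (log2 fold change 0.28, SE 0.23), with anti-LILRB4 library 2 the highest. Slfn5 averaged 2.17 ± 0.422 CPM in anti-LILRB4 libraries and 2.14 ± 0.104 CPM in control libraries (SD, n = 3 each). The median of the Slfn members was 0.15 and that of the Ifi200 members -0.60. Without anti-LILRB4 library 2 the Slfn median was -0.02, and without control library 1 the Ifi200 median was 0.09.

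**Figure D2:**
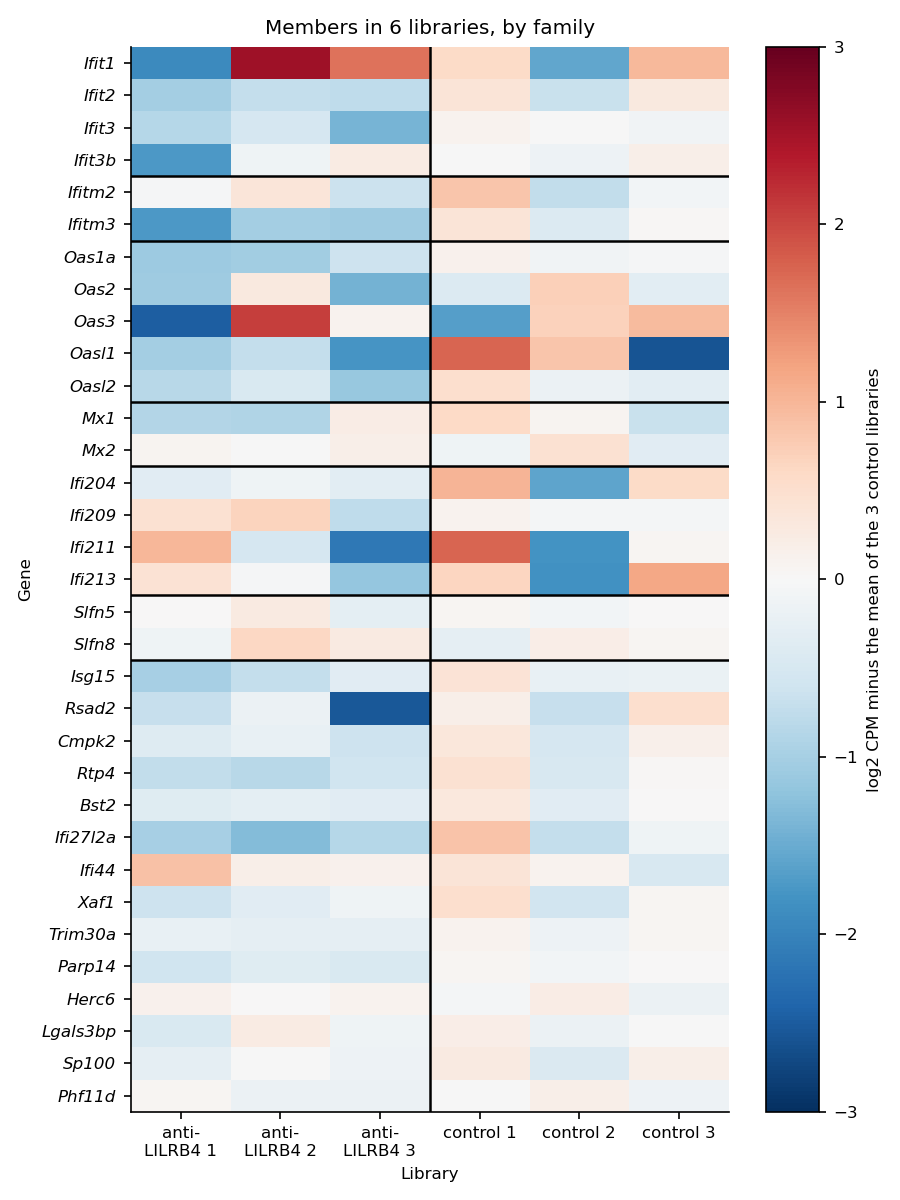
Level of each effector gene in each library, as log2 CPM minus the mean of the 3 control libraries (colour, red higher, blue lower), with anti-LILRB4 libraries in the 3 left columns, control libraries in the 3 right columns and families divided by lines. Ifitm3, Oas1a, Oasl2, Isg15, Rtp4 and Ifi27l2a are blue in the 3 anti-LILRB4 columns, while the Ifi200 genes are bluest in control 2 or in anti-LILRB4 3.

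Among the 14 other genes, 12 had a negative log2 fold change, and an unadjusted p under 0.05 was reached by 6, all lower. Ifi27l2a (chromosome 12, 103442167 to 103443680, minus strand), a small membrane protein of the Ifi6 and Ifi27 group, was at 16.6, 13.5 and 18.4 CPM in anti-LILRB4 libraries, against 60.1, 20.1 and 30.1 CPM in control libraries. The groups did not overlap, but control library 1 was far above the other controls. The log2 fold change was -1.19 (SE 0.34, edgeR adjusted p 0.461) and -0.64 without that library. Rtp4 (chromosome 16, 23520291 to 23614222, plus strand), an interferon-induced chaperone of receptor transport, was at 60.1, 56.6 and 66.1 CPM in anti-LILRB4 libraries, against 138, 72.2 and 103 CPM in control libraries. Here the anti-LILRB4 libraries were tightly grouped below the more scattered controls (log2 fold change -0.78, SE 0.21, edgeR adjusted p 0.426). The exons of Rtp4 overlap those of Gm45338.

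Isg15, a ubiquitin-like protein that is attached to other proteins, was at 8.18, 9.97 and 13.04 CPM in anti-LILRB4 libraries, against 22.0, 14.1 and 14.3 CPM in control libraries (log2 fold change -0.69, SE 0.25, edgeR adjusted p 0.538). Anti-LILRB4 library 3 was close to control libraries 2 and 3, without overlap, and without control library 1 the fold change was -0.45. Parp14, an ADP-ribosyltransferase, was at 14.3, 16.9 and 15.9 CPM in anti-LILRB4 libraries, against 22.6, 20.5 and 21.9 CPM in control libraries, with a log2 fold change of -0.47 (SE 0.16, edgeR adjusted p 0.523). Its groups were clearly separated, and its exons overlap those of Gm49730. Trim30a, a ubiquitin ligase that dampens NF-kB signalling in mice, was at 117, 113 and 112 CPM in anti-LILRB4 libraries, against 146, 121 and 140.2 CPM in control libraries (log2 fold change -0.25, SE 0.11, edgeR adjusted p 0.614). Bst2 (tetherin), which holds budding virus at the cell surface, was at 92.2, 95.8 and 93.3 CPM in anti-LILRB4 libraries and 146, 93.6 and 119 CPM in control libraries. Control library 2 lay among the anti-LILRB4 libraries for Bst2, so the groups overlap (log2 fold change -0.35, SE 0.15, edgeR adjusted p 0.614; -0.18 without control library 1).

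The other 8 genes overlapped between the groups. Rsad2 (viperin), which makes a chain-terminating nucleotide, and its neighbour Cmpk2, a nucleotide kinase, lie side by side on chromosome 12. Rsad2 was at 3.17, 4.56 and 0.850 CPM in anti-LILRB4 libraries and 5.83, 3.17 and 7.31 CPM in control libraries (log2 fold change -0.92, SE 0.54), and anti-LILRB4 library 3, without which the fold change was -0.49, was far below the rest. Cmpk2 had a log2 fold change of -0.45 (SE 0.36). Xaf1, a pro-apoptotic protein, had a log2 fold change of -0.42 (SE 0.26), and Sp100, a nuclear body protein, one of -0.17 (SE 0.20). Lgals3bp, a secreted galectin-binding glycoprotein, averaged 135 ± 33.2 CPM in anti-LILRB4 libraries and 144 ± 17.9 CPM in control libraries (SD, n = 3 each). Phf11d and the HECT-domain protein Herc6 had log2 fold changes of -0.10 (SE 0.16) and 0.08 (SE 0.18). Ifi44 had one of 0.41 (SE 0.47) at 1.39 CPM on average in anti-LILRB4 libraries and 1.04 CPM in control libraries.

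**Figure D3:**
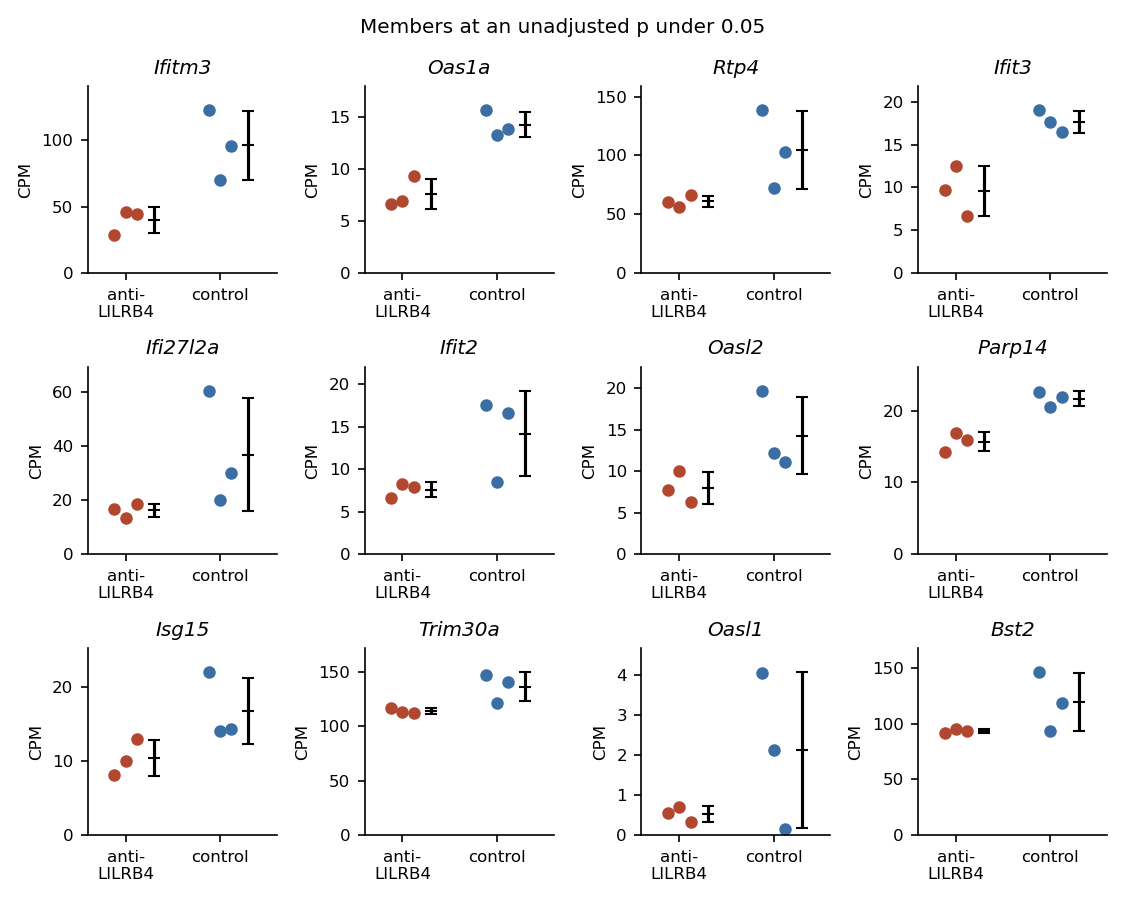
CPM in each library (y axis, linear from 0) for the 12 effector genes at an unadjusted p under 0.05, ordered by p; points are libraries, anti-LILRB4 in red on the left and control in blue on the right, and bars give the mean ± SD. The groups are apart for 10 genes and overlap for Oasl1, where control library 3 is at 0.159 CPM, and for Bst2, where control library 2 is at 93.6 CPM.

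Per length of exon the genes span a wide range of levels, and the difference was seen at both high and moderate levels. By the mean over the 6 libraries Bst2 was the most abundant, at 104 ± 2.06 CPM per kilobase of exon in anti-LILRB4 libraries and 132 ± 29.2 in control libraries (SD, n = 3 each). Ifitm3 followed at 58.6 ± 14.4 CPM per kilobase in anti-LILRB4 libraries and 142 ± 38.4 in control libraries, and Ifi27l2a at 34.9 ± 5.32 in anti-LILRB4 libraries and 79.4 ± 45.0 in control libraries. Lgals3bp came next and was at 47.5 ± 11.7 CPM per kilobase in anti-LILRB4 libraries and 50.6 ± 6.29 in control libraries. Its place below Ifi27l2a rests on control library 1, where Ifi27l2a was at 129.8, and in each anti-LILRB4 library Lgals3bp was the higher of the pair. In control libraries 1, 2 and 3 Ifitm3 was at 181, 104 and 141 CPM per kilobase and Bst2 at 162, 104 and 131. Ifitm3 was thus above Bst2 in control libraries 1 and 3 and level with it in control library 2, although their spreads overlap. In anti-LILRB4 libraries Bst2 was above Ifitm3 in each library, and its first place by the mean over the 6 libraries rests on these. At the low end, Oas2, Oas3, Ifi213 and Ifi44 were all under 0.3 CPM per kilobase in both groups.

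Summed over members, the Ifitm family was at 31.4, 50.0 and 46.4 CPM in anti-LILRB4 libraries 1, 2 and 3, against 128, 72.1 and 98.3 CPM in control libraries 1, 2 and 3. The Oas family summed to 15.2, 20.2 and 16.5 CPM in anti-LILRB4 libraries, against 39.8, 29.1 and 26.4 CPM in control libraries. The Ifit family summed to 18.1, 28.9 and 23.0 CPM in anti-LILRB4 libraries, against 43.0, 31.4 and 40.5 CPM in control libraries. In these 3 sums every anti-LILRB4 library was below every control library. The sums rest on a few abundant members, Ifitm3, Oas1a, Oasl2, Ifit2 and Ifit3, while Ifitm2, Ifit1, Ifit3b, Oas2, Oas3 and Oasl1 overlapped on their own. The sums overlapped for Mx, at 7.25, 6.80 and 9.35 CPM in anti-LILRB4 libraries and 9.20, 10.4 and 6.03 CPM in control libraries. They overlapped as well for Ifi200, at 11.1, 11.7 and 6.73 CPM in anti-LILRB4 libraries and 17.1, 5.60 and 13.4 CPM in control libraries. The Slfn members summed to 16.3, 26.5 and 20.3 CPM in anti-LILRB4 libraries and 15.1, 19.7 and 18.3 CPM in control libraries. These sums overlapped too. They leave out the more abundant relative Slfn2, given further on. The medians of the Ifit, Ifitm and Oas families were -0.60, -0.73 and -0.83 and were negative in the 16 alternatives run, while that of the Mx family was -0.24. With the neutrophil covariate they were smaller, at -0.30 for Ifit, -0.12 for Ifitm and -0.30 for Oas, and without control library 1 the Ifitm median was -0.37.

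The libraries of a group were not alike in these genes. Relative to the mean of the controls, the median member was at -0.60, -0.18 and -0.33 (log2 CPM) in anti-LILRB4 libraries 1, 2 and 3 and at 0.32, -0.16 and 0.01 in control libraries 1, 2 and 3. Anti-LILRB4 library 2 and control library 2 were thus almost level. Control library 1 was the highest of the 6 libraries for 19 of the 33 genes, 57.6%, against 23% of all genes tested. Anti-LILRB4 library 1 was the lowest for 11 genes (33.3%, against 13.7% of all genes) and anti-LILRB4 library 3 for 9 (27.3%, against 18.8%). Anti-LILRB4 library 2 was the highest for 6 genes (18.2%, against 19% of all genes), among them Ifit1, Oas3 and Lgals3bp.

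Neutrophil markers differed among the same libraries. Of 13 neutrophil markers 11 were tested, 9 had a negative log2 fold change, and none was at 0 in all libraries. Their summed level was 135, 1131 and 219 CPM in anti-LILRB4 libraries 1, 2 and 3 and 1340, 573 and 613 CPM in control libraries 1, 2 and 3. The 7 monocyte markers summed to between 32.6 and 89.6 CPM in anti-LILRB4 libraries and between 50.6 and 108 CPM in control libraries. Ly6g, which defines neutrophils, was at 0, 0.596 and 0.0486 CPM in anti-LILRB4 libraries 1, 2 and 3 and at 1.379, 1.586 and 1.366 CPM in control libraries. In bulk RNA, fewer cells of a type and less RNA per cell cannot be told apart. In anti-LILRB4 library 2 the summed level of the neutrophil markers lay within the control range. It was made up mostly of S100a8 (412 CPM) and Ngp (382 CPM). Single markers went both ways in that library. Ly6g, Retnlg and Mmp8 were below every control there. Ngp, Ltf (45.3 CPM), Lcn2 (57.0 CPM) and Cxcr2 (0.718 CPM) were above every control there. How much of the difference in the effectors goes with these cells was not tested. The mean marker level was below every control in anti-LILRB4 libraries 1 and 3. The fit that follows therefore cannot tell marker level and treatment apart. In the fit that also held the mean neutrophil level, the members at an unadjusted p below 0.05 were Ifitm3 (-0.86) and Oas1a (-0.96), and edgeR called 0 at an adjusted p under 0.05. With that covariate the sign of Ifitm2, Mx2, Herc6, Lgals3bp and Sp100 turned.

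**Figure D4:**
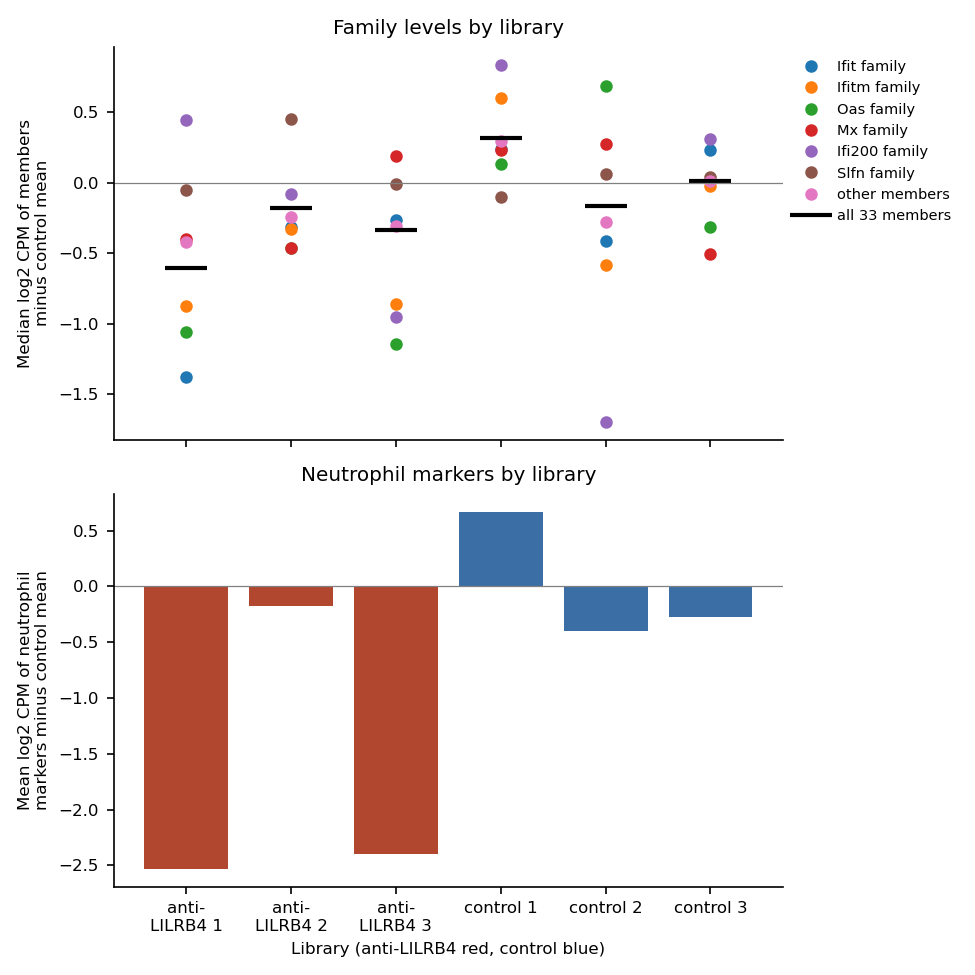
Upper plot: median log2 CPM of the members of each family (coloured points) and of all 33 genes (black bars) in each library, relative to the control mean; lower plot: mean log2 CPM of 11 neutrophil markers on the same scale. Anti-LILRB4 library 1 is lowest in both, at -0.60 and -2.53, and control library 1 is highest in both, at 0.32 and 0.67.

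Relatives of these families outside the 33 genes were measured in the same way. Of 43 listed names 42 were in the table and 31 were tested. Their median log2 fold change was -0.15, with 20 of the 31 negative, while 50.9% of all genes tested were negative. Against 3.91% lower and 4.12% higher of all genes, 5 of the relatives were lower and 0 higher at an unadjusted p under 0.05. In edgeR 0 of them passed at an adjusted p under 0.05. Parp12, a relative of Parp14, was at 16.4, 18.5 and 15.6 CPM in anti-LILRB4 libraries, against 25.6, 24.6 and 21.0 CPM in control libraries (log2 fold change -0.50, SE 0.17). Phf11a was at 2.24, 1.68 and 2.31 CPM in anti-LILRB4 libraries, against 3.03, 4.39 and 4.23 CPM in control libraries, and Trim30c at 5.47, 5.68 and 2.45 CPM in anti-LILRB4 libraries, against 10.7, 7.34 and 7.06 CPM in control libraries. These 3 of the 31 relatives lay below every control in each anti-LILRB4 library, which holds for 7.79% of all genes tested. Trim30d, next in the family to Trim30a and Trim30c, had a log2 fold change of -0.02 (SE 0.12). Ifitm6 was at 2.42, 6.08 and 1.87 CPM in anti-LILRB4 libraries and 13.5, 4.78 and 7.33 CPM in control libraries, with control library 1 the highest, as for the neutrophil markers. Slfn1 had 0.561 CPM in anti-LILRB4 library 2 and 0 reads in libraries 1 and 3, against 6.29, 0.149 and 1.07 CPM in control libraries. Slfn2, more abundant than Slfn8 and Slfn5, was at 93.2, 96.3 and 119 CPM in anti-LILRB4 libraries. In control libraries it was at 209, 93.7 and 138 CPM, so the groups overlap (log2 fold change -0.51, SE 0.24). Slfn3, Slfn9 and Slfn10-ps, all scarce, had positive log2 fold changes of 0.49, 0.53 and 0.70. Parp10 and Herc3, 2 of the 31, lay above every control in each anti-LILRB4 library (6.94% of all genes), with log2 fold changes of 0.50 (SE 0.23) and 0.55 (SE 0.29).

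Few genes of the pathway above the effectors reached the same thresholds. For interferons, receptors, kinases, transcription factors, nucleic acid sensors and feedback 28 genes were tested. The log2 fold change was negative in 15, with a median of -0.01, while 50.9% of all genes tested were negative. An unadjusted p under 0.05 was reached by 1 lower and 0 higher pathway genes, against 3.91% and 4.12% of all genes tested. These counts are near those shares. In edgeR 0 of the 28 were called at an adjusted p under 0.05. DESeq2 called 1 of them, lower, against 0.467% of all genes tested. That gene was Usp18, which removes Isg15 from proteins and dampens receptor signalling, at 20.0, 21.8 and 17.0 CPM in anti-LILRB4 libraries, against 53.0, 31.5 and 44.3 CPM in control libraries. The receptor genes Ifnar1 and Ifnar2 had log2 fold changes of 0.22 (SE 0.13) and 0.09 (SE 0.12). For the transcription factors the log2 fold changes were -0.23 (SE 0.16) for Stat2, -0.15 (SE 0.15) for Irf9 and -0.75 (SE 0.39) for Irf7. Of these only Stat2 did not overlap, at 18.4, 20.7 and 22.9 CPM in anti-LILRB4 libraries, against 23.6, 23.1 and 25.9 CPM in control libraries. The interferon genes Ifnb1, Ifna4, Ifng and Ifnl2 did not pass the filter on low counts.

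**Figure D5:**
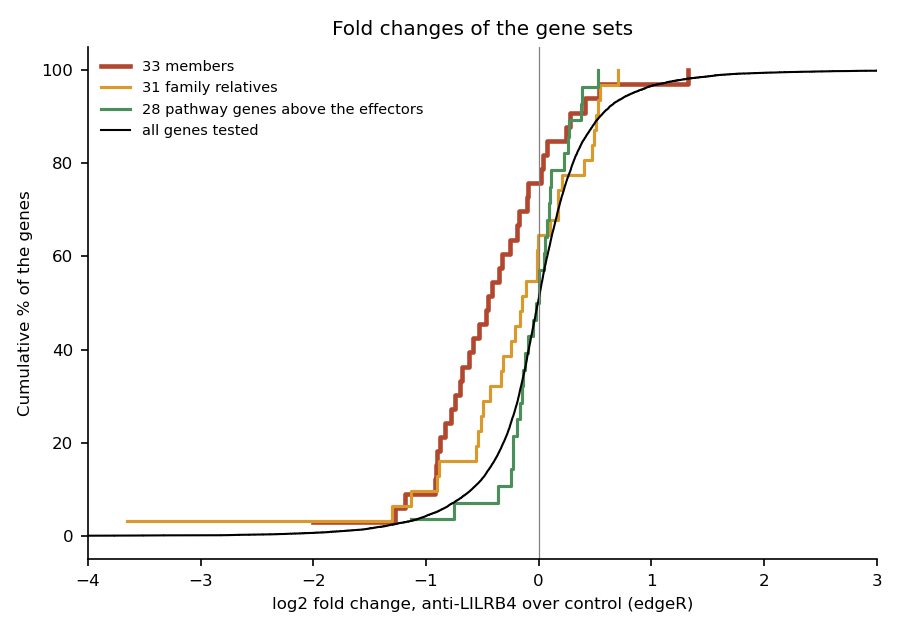
Cumulative share of genes (y axis, %) by log2 fold change (x axis, anti-LILRB4 over control, edgeR) for the 33 effectors, 31 tested family relatives, 28 tested pathway genes above the effectors and all genes tested. The curve of the effectors lies to the left of that of all genes, with medians of -0.45 and -0.01, and the curve of the pathway genes above the effectors runs near that of all genes, with a median of -0.01.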

How the data were processed

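RNA was sequenced from sorted microglia of 6 libraries, 3 per antibody, grouped by sample title. Per the labels' protocols, cDNA was made with an ultra-low-input kit without strand information; 7 members have exons that overlap another gene, and their reads cannot be assigned by strand. The deposited table holds whole read counts per gene, not normalized; neither genome build nor annotation nor the treatment of multi-mapped reads is given in the sources used here. In the authors' deposited table, per the file headers, are DESeq2 columns: log2 fold changes, a score, p-values and a mean normalized signal (DESeq2 1.38.3 per the submitters' processing notes).

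From 55780 rows, 287 repeats with identical counts were dropped. The main test was edgeR 4.0.16 in R 4.3.3 (filterByExpr with a minimum count of 10, TMM, quasi-likelihood F test, no covariate, Benjamini-Hochberg adjustment over all genes tested). Each SE was obtained as the size of the fold change (log2) over the root of its F statistic. Log2 CPM used a prior count of 2. DESeq2 1.42.0 and voom in limma 3.58.1 were alternatives. The pipeline was tested on simulated data. Exon lengths, coordinates and 150-base windows came from GENCODE M21. Total counts were 39805118 to 56345514, and low genes are limited by counting error.

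The members, families and lists were chosen with earlier results of these data known, so they are no independent evidence. All 33 members are named; values in every library are given for members that did not overlap between groups or had an unadjusted p under 0.05, for the most abundant member of each family, and for further members chosen after their values were seen. No pair of replicates agreed within sampling noise. Same-numbered libraries did not deviate together (correlations 0.01, 0.03 and -0.01). Figures were drawn with matplotlib 3.10.9.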

Additional observations from a re-analysis of the deposited data

How the results depend on the processing

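Of 16 alternatives, all fixed with earlier results known, none turned the median of the 33 genes positive. DESeq2 called 5 members, 5 of them lower, and 169 genes, 85 lower; unfiltered counts in edgeR gave 4 members, 4 lower, 1 member higher at an unadjusted p under 0.05, and 300 called genes, 117 lower. With the neutrophil marker level as covariate 2 members were at an unadjusted p under 0.05, 2 of them lower. The median was -0.17 in that fit, -0.12 for Ifitm, -0.30 for Oas and 0.39 for Slfn. That level goes partly with treatment, so this fit cannot tell marker level and treatment apart. Leaving out single libraries gave 7 to 13 members at an unadjusted p under 0.05, 7 to 13 lower and 0 to 1 higher, and a median between -0.52 and -0.18. With the replicate block, 10 members were lower at an unadjusted p under 0.05, 0 were called and the median was -0.36; the numbers do not pair the libraries.

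Signs turned for Slfn5 with upper quartile scaling (-0.014) and protein-coding genes only (-0.0012), for Oas3 in limma-voom (-0.013) and with the replicate block (-0.12), and with the neutrophil covariate for Ifitm2 (0.61), Mx2 (-0.13), Herc6 (-0.019), Lgals3bp (0.31) and Sp100 (0.084). Leaving out single libraries, values ran from -0.72 to 0.067 for Ifit3b, -0.28 to 0.066 for Lgals3bp, -1.14 to 1.08 for Oas3, -0.020 to 0.57 for Ifi209, -0.12 to 0.15 for Slfn5, -0.49 to 0.33 for Ifitm2, -0.12 to 0.32 for Mx2, -1.98 to 0.62 for Ifi211, -1.07 to 0.0024 for Ifi213 and -0.0085 to 0.21 for Herc6; the cause was not tested. In all, 19 members were negative in every alternative in which they were tested, and Ifitm3, Oas1a, Ifit2, Ifit3, Rtp4 and Ifi27l2a stayed at an unadjusted p under 0.05 whichever library was left out. Genes under 1 CPM, such as Oas2 and Ifi211, are limited by depth.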
